A study of Mus musculus with 6 samples.

Results

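The genes described here encode the proton pump of the lysosome and the signalling platform that sits on the same membrane, measured in BV2 cells, an immortalized mouse microglial line. 40 gene symbols were chosen by name: 8 genes of the V1 sector of the V-ATPase, 11 of its V0 sector and accessory subunits, 11 of Ragulator, the Rag GTPases and their regulators, and 10 of mTORC1, the TSC complex, the MiT/TFE transcription factors and the lysosomal channel Mcoln1. All 40 were found among the 46095 gene symbols of the count table. The cells were either untreated (CON) or given recombinant sTREM-1, the soluble form of the receptor TREM-1, at 1 μg/mL for 6 h, and RNA-seq was made from 3 libraries of each group. The study asked how sTREM-1 alters the biology of microglia. The line stands for microglia only in part, since it is transformed and was kept in culture without other brain cells. No source used here says whether the wells of a group were separate cultures. A well's handling and its treatment therefore cannot be told apart, and the p-values measure only the spread between these libraries, which may be technical.

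The V-ATPase pumps protons into lysosomes and phagosomes. Its cytosolic V1 sector hydrolyses ATP, its membrane V0 sector carries the protons, and the pump is switched off when the sectors come apart. Ragulator anchors the Rag GTPases to the lysosomal surface, where it also touches the V-ATPase. When amino acids are plentiful the Rags recruit mTORC1, the growth kinase, which is then activated by Rheb, itself held in check by the TSC complex. Active mTORC1 keeps TFEB, TFE3 and MITF in the cytosol. When these factors enter the nucleus they bind a short palindrome, CACGTG, in the promoters of lysosomal genes, among them genes of the pump itself. In microglia this system acidifies the compartments in which engulfed material is broken down.

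The palindrome CACGTG reads the same on either strand. It was searched for in RefSeq promoter sequence of the build GRCm38.p6, from 250 bases before to 50 bases after each start site, where 33 of the 40 genes had an entry. No entry was matched for Atp6v0a2, Atp6v0d2, Atp6v1b2, Atp6v1c1, Atp6v1g1, Atp6v1h and Lamtor3. The palindrome was present in 10 of the 33 genes (30.3%), against 8.09% of all 27025 genes and 11.8% of the 9714 tested genes with an entry. Counted per promoter, of which a gene can have several, it was in 7.15% of all 32851. In all 10 it stood within the longer word TCACGTG, searched on both strands and containing the palindrome. That word was held by 4.29% of all genes and 7.09% of the tested genes with an entry (3.77% of all promoters). The wider 10-base form, with GT before the palindrome and AC after it, was in none of the 33. It was in 0.37% of all genes and 0.865% of the tested genes with an entry (0.326% of all promoters). The sequences shown are the holders among the genes whose RNA fell (Atp6v1a, Atp6v0b, Atp6v0d1, Fnip1 and Mcoln1) and, for comparison, 2 holders that passed no test (Lamtor1 and Rragc), each read 5′ to 3′ along its gene with the palindrome in capitals.
Atp6v1a (chr16:44139348-44139427, minus strand): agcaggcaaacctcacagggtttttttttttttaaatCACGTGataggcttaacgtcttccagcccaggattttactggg
Atp6v0b (chr4:117887339-117887368, minus strand): ggtCACGTGgggtcggcgcatCACGTGcgc
Atp6v0d1 (chr8:105566050-105566079, minus strand): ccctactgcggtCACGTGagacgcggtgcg
Fnip1 (chr11:54438067-54438146, plus strand): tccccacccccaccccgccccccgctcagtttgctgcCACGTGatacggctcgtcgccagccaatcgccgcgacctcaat
Mcoln1 (chr8:3500462-3500491, plus strand): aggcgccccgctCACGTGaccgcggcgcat
Lamtor1 (chr7:101905732-101905811, plus strand): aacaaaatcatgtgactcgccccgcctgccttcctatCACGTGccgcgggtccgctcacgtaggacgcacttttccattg
Rragc (chr4:123917284-123917363, plus strand): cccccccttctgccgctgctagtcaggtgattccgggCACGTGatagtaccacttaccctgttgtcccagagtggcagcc
Atp6v0b carries the palindrome at 36 and at 18 bases before its start site. Mcoln1 carries it at 71 and at 45 bases before, of which the window shows the second, and the others shown carry 1 copy. Of the 9 holders that were tested, 5 fell, none rose and 4 were not called after sTREM-1, where 14.1% of all tested genes were called lower and 16.5% higher. Of the 7 tested genes with no entry 4 fell (Atp6v1c1, Atp6v1g1, Atp6v1h and Lamtor3). Of the 22 tested genes without the palindrome, 5 fell and 4 were called higher, among them Atp6v1e1, which rests on 1 library, and Tfe3, which held its call in 3 of 11 alternatives. A match is a description of these letters and shows no binding, and no test was made on these counts.

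The 6 libraries held between 40070633 and 45877107 counts, and 14120 genes passed the filter on low counts. Changes are given as log2 fold changes of sTREM-1 against CON from edgeR's quasi-likelihood test, with p-values adjusted over all 14120 genes and a call at an adjusted p under 0.05. Levels are given in CPM, a gene's share of its library's counts after TMM scaling. The marker sums below were made without that scaling. Replicates varied by a coefficient of 3.99% beyond counting error, and 30.5% of all genes were called, many of them for small changes. Markers of microglia and macrophages summed to 6513 to 6563 CPM in CON and 6677 to 6797 CPM in sTREM-1 libraries, although Aif1, a defining marker, was listed at 0 in all 6. The sum was uneven, with 11 of the 14 tested markers at 10 CPM or more and Lyz2 alone at 3048 CPM in CON. P2ry12 and Tmem119 of the same list were at only 0.67 and 1.47 CPM in CON. Marker sums of astrocytes, neurons and fibroblasts were at most 1.25 CPM in every library, and that of oligodendrocytes was 25.3 to 28.8 CPM, with the defining markers Aldh1l1, Rbfox3, Col1a2 and Mog at 0 in all 6. Of 14 tested microglia and macrophage markers 5 rose (35.7%) and 1 fell (7.14%), beside 16.5% and 14.1% of all genes. Csf1r rose by 0.53 and Cx3cr1 by 0.90, the latter from 0.94 to 1.77 CPM on 33 to 93 counts per library. The part of these markers in the results was not tested.

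After sTREM-1, 38 of the 40 genes could be tested, 14 fell, 4 were called higher and 20 were not called, while 14.1% of all genes tested were called lower and 16.5% higher. With a change of at least 1.2-fold asked for as well, 3 fell (Atp6v1h, Lamtor3 and Rragd) and 1 was higher (Atp6v1e1), where 4.82% of all genes were lower and 5.92% higher. Of the 4 called higher, Atp6v1e1 rests on 1 library, and without sTREM-1 replicate 2 the count was 2 higher and 14 lower, as it was with DESeq2. Among the 9054 genes with a mean of at least 10 CPM, a range chosen after the values were seen that holds 37 of the 38, the shares were 18.7% lower and 23.4% higher. Atp6v1e1 is in this range only through sTREM-1 replicate 2, at 52.6 CPM there and 3.28 to 4.02 CPM in the other libraries. All 3 sTREM-1 libraries lay below all 3 CON libraries for 18 genes and above them for 7, where 19.4% and 21.3% of all genes did so (40.7% either way), and for the other 13 the groups overlapped. The median log2 fold change over the 38 was −0.03, beside −0.0017 over all genes, and it was −0.05 without sTREM-1 replicate 2. In bulk RNA, less RNA per cell and fewer cells that carry it cannot be told apart.

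**Figure D1:**
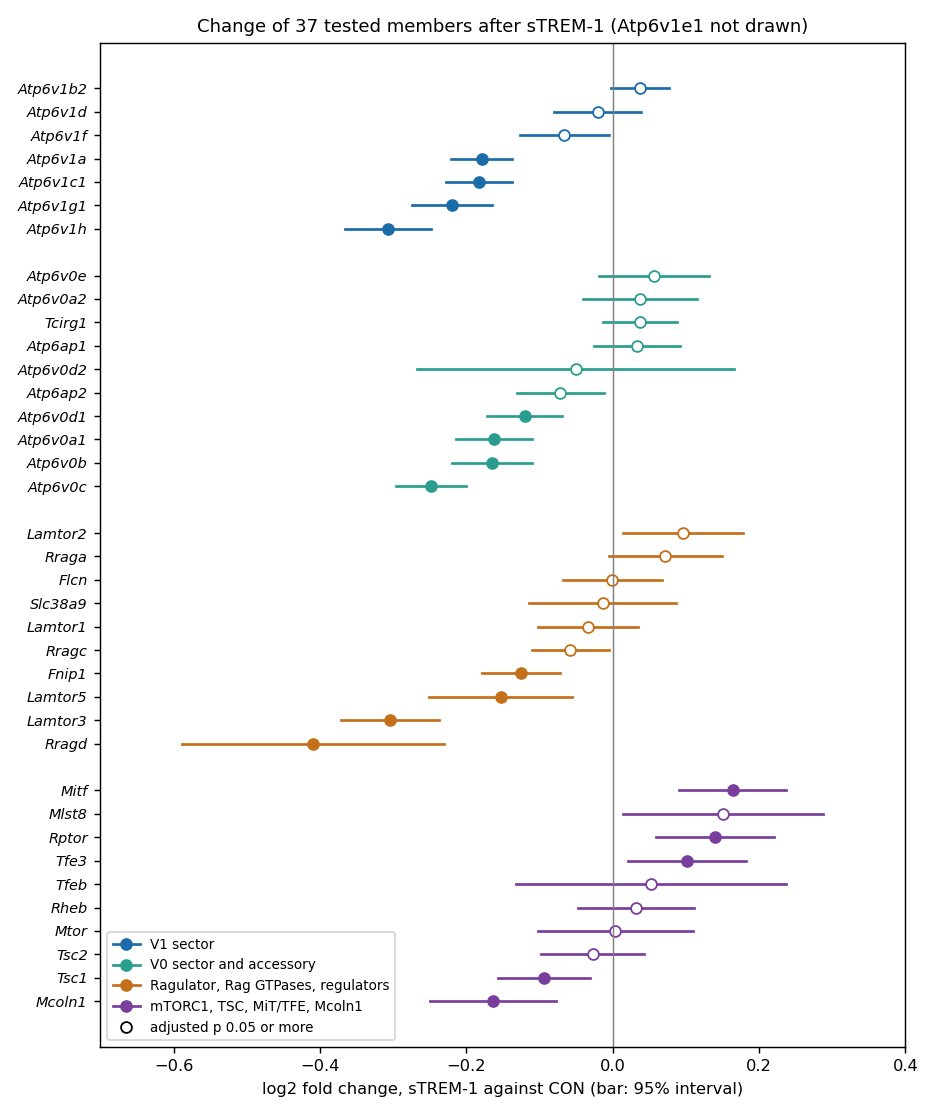
Log2 fold change of sTREM-1 against CON for 37 genes, with bars for the 95% interval, colours for the 4 groups of genes and filled points for an adjusted p under 0.05. Filled points of the V1, V0 and Ragulator-Rag groups all lie left of 0 once Atp6v1e1, called higher at 2.38 through 1 library, is left out of the plot as here, while Mitf, Rptor and Tfe3 lie right of it.

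In the plot of log2 fold changes the 4 groups of genes overlap. The V1, V0 and Ragulator-Rag genes had medians of −0.12, −0.06 and −0.05, and the mTORC1-TFEB genes one of 0.04. Leaving out 1 library moved the V0 median to −0.04 (without CON replicate 2) or −0.10 (without CON replicate 3), and the mTORC1-TFEB median to 0.07 (without sTREM-1 replicate 1) or 0.03 (without sTREM-1 replicate 2). Relative to the CON mean, the median V1 gene stood at −0.17, −0.13 and −0.18 log2 units in the sTREM-1 libraries and between −0.01 and 0.01 in the CON libraries. The median V0 gene stood at −0.09, −0.05 and −0.07, and the median Ragulator-Rag gene at −0.04, −0.05 and −0.07. For these groups of genes no sTREM-1 library reached the CON range, whereas the medians of the mTORC1-TFEB genes overlapped between the groups. No test was made of the difference between these groups of genes.

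In the V1 sector, 4 of 8 genes fell, 1 was called higher through a single library, and 3 were not called, beside 14.1% of all genes lower and 16.5% higher. Atp6v1h encodes the H subunit, which regulates whether V1 may work on V0. It was at 294, 305 and 291 CPM in the CON libraries and at 248, 244 and 228 CPM in the sTREM-1 libraries. All sTREM-1 values were lower, at 76.8 to 83.6% of the CON mean, and the fall of 0.31 on the log2 scale (SE 0.0288, adjusted p = 8.6e-10) was the largest in the V1 sector. Atp6v1g1, part of the outer stalk that holds the pump still, was at 209, 207 and 206 CPM in CON and at 179, 180 and 175 CPM after sTREM-1. Its groups did not overlap and it fell by 0.22 (SE 0.0267, adjusted p = 1.4e-07).

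Atp6v1a encodes the A subunit, which hydrolyses ATP. It was at 916, 915 and 908 CPM in CON and at 814, 803 and 801 CPM after sTREM-1. The spread within each group was under 1% of the level, and the fall of 0.18 (SE 0.0201, adjusted p = 3.0e-08) left a wide gap between them. Atp6v1b2 encodes the B subunit, which alternates with A in the same ring. It was at 1057, 1068 and 1062 CPM in CON and at 1093, 1102 and 1077 CPM after sTREM-1. All of its sTREM-1 values were above CON, but the difference of 0.04 (95% interval −0.0028 to 0.08) did not pass the test (adjusted p = 0.16). The partners of the ring thus differed in their call, A lower and B not called. Atp6v1c1, whose product ties the outer stalks to V0, was at 517, 515 and 507 CPM in CON and at 452, 452 and 454 CPM after sTREM-1. Every sTREM-1 library lay under every CON library, and the gene fell by 0.18 (SE 0.022, adjusted p = 1.2e-07).

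The central rotor is made of D and F. Atp6v1d differed by −0.02 (95% interval −0.08 to 0.04, adjusted p = 0.65) from 144 ± 2.61 CPM (SD, n = 3) in CON, and its groups overlapped. Atp6v1f was at 137, 141 and 136 CPM in CON and at 131, 131 and 133 CPM after sTREM-1. Its groups did not overlap, yet the difference of −0.07 (95% interval −0.13 to −0.0057) missed the threshold (adjusted p = 0.093).

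The remaining V1 gene, Atp6v1e1, was called higher because of 1 library. Its product pairs with G in the outer stalk and is needed for the pump to assemble, but only 144, 158 and 164 counts were listed for it in CON and 150, 2242 and 133 counts after sTREM-1. On the CPM scale the value in sTREM-1 replicate 2 was 15.7 times the median of its group, while the counts of the other 5 libraries lay within 133 to 164. The log2 fold change was 2.38 (SE 0.557, adjusted p = 0.0013). Without sTREM-1 replicate 2 it was −0.20 with an adjusted p of 0.47, and over all alternatives that gave a p the adjusted p ran up to 0.47. A value at least 2 times, or at most 1/2, its group's median in at least 1 library was met in 4.58% of all genes. Atp6v1e1 was the only one of the 38 tested here. It stayed the only one at 3 times the median, which 1.37% of genes met. 21 genes moved the opposite way in that library by a like number of counts, and none lay within 10 kb of Atp6v1e1. The largest fall among them was 6.76% of the gene's own level. No near-identical copy of Atp6v1e1 was found in the annotation, so none could be looked for among them. Where the 2242 counts came from, and whether the low counts elsewhere reflect the RNA level or how the table was counted, was not tested.

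**Figure D2:**
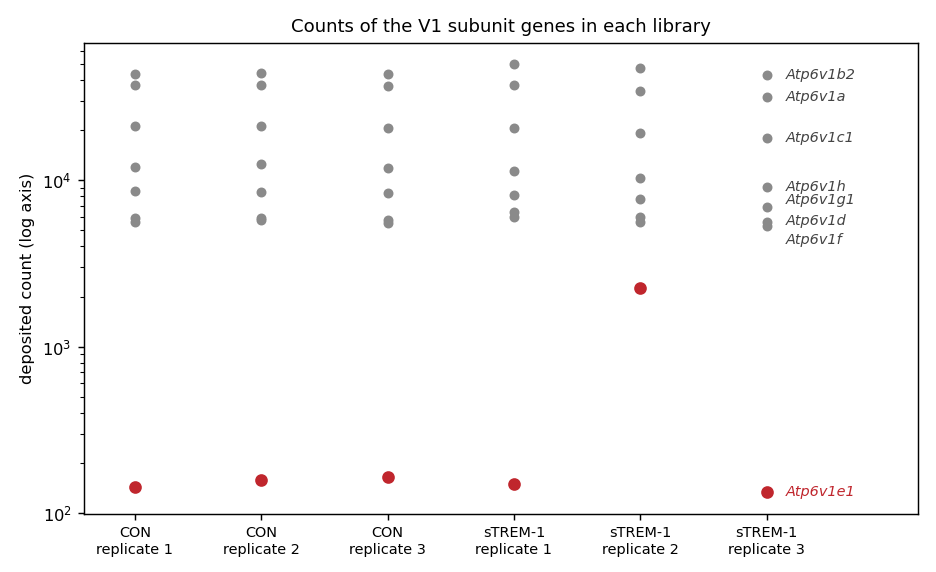
Deposited counts (log axis) of the 8 V1 genes in each of the 6 libraries, with Atp6v1e1 in red and the others in grey. Atp6v1e1 lies between 133 and 164 in 5 libraries and at 2242 in sTREM-1 replicate 2, where no other V1 gene stands apart.

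In the V0 sector, 4 of the 10 tested genes fell and none rose, beside the same 14.1% and 16.5% of all genes. Atp6v0c encodes the c subunit, the proteolipid repeated around the proton-carrying ring. It was at 637, 647 and 622 CPM in CON and at 526, 527 and 552 CPM after sTREM-1. The groups did not overlap, and the fall of 0.25 (SE 0.0235, adjusted p = 1.1e-09) was the largest in V0. Its pseudogene Atp6v0c-ps2 is 99.8% identical over 465 bases of the transcript but held at most 162 counts in any library, against at least 21896 for Atp6v0c. Atp6v0b, the relative of c in the same ring, was at 344, 332 and 334 CPM in CON and at 310, 303 and 288 CPM after sTREM-1. All sTREM-1 values were lower, and it fell by 0.17 (SE 0.0268, adjusted p = 1.4e-05). Both proteolipid genes of the ring were therefore lower.

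Atp6v0d1 encodes the d subunit that couples the rotor of V1 to the ring. It was at 374, 367 and 354 CPM in CON and at 341, 330 and 337 CPM after sTREM-1. The groups lay closer than for the ring genes but did not overlap, and it fell by 0.12 (SE 0.0251, adjusted p = 0.00038). Its relative Atp6v0d2, better known from osteoclasts and macrophages, was at 7.87 ± 0.839 CPM in CON and 7.60 ± 0.344 CPM in sTREM-1 (SD, n = 3), with a 95% interval of −0.27 to 0.17 that is too wide to exclude a change of the size seen for Atp6v0d1.

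The a subunit lines the path of the protons and is made from several genes that send the pump to different membranes. Atp6v0a1 was at 241, 237 and 239 CPM in CON and at 213, 215 and 212 CPM after sTREM-1. It fell by 0.16 (SE 0.0255, adjusted p = 9.1e-06) with groups well apart. Atp6v0a2, the form of the Golgi and endosomes, differed by 0.04 (95% interval −0.04 to 0.12) and overlapped. Tcirg1, the a3 form of lysosomes and osteoclasts, was at 477, 485 and 491 CPM in CON and at 487, 487 and 517 CPM after sTREM-1, a difference of 0.04 (95% interval −0.01 to 0.09, adjusted p = 0.28). The fold changes of the 3 forms were not tested against each other, although the interval of Atp6v0a1, −0.21 to −0.11, lies under those of the other two.

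Of the genes around the V0 core, Atp6v0e, a small membrane subunit, and Atp6ap1, an assembly factor, differed by 0.06 and 0.03 and were not called. Atp6ap2, the accessory subunit also named the prorenin receptor, was at 139, 137 and 141 CPM in CON and at 131, 133 and 134 CPM after sTREM-1. Its sTREM-1 values were all lower, but the difference of −0.07 (95% interval −0.13 to −0.01) had an adjusted p of 0.063. Atp6v0e2 was not tested, with 0, 4 and 0 counts in CON and 1, 0 and 0 after sTREM-1.

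The subunit genes were at unequal levels once each was divided by the length of its merged exons. That length covers all annotated isoforms, and whether the order holds with transcript lengths was not tested. In CON, Atp6v0d1 and Atp6v1b2 led with 204 ± 5.60 and 200 ± 1.05 CPM per kb (SD, n = 3), levels that differed by less than the spread of Atp6v0d1. Atp6v0c, Atp6v1g1, Atp6v0b, Atp6v1a and Atp6v1f followed at 188, 183, 164, 151 and 130 CPM per kb. Of the a subunits, Tcirg1 was at 105 CPM per kb, Atp6v0a1 at 36.4 and Atp6v0a2 at 10.9. Tcirg1 was thus the most abundant a form per length, and Atp6v0a1, the a form that fell, the next. Atp6v1e1 was at 0.923 CPM per kb in CON, the lowest listed level of the 18 tested V-ATPase genes, under Atp6v0d2 at 2.90, with the doubt about its counts given above. Its neighbour in the outer stalk, Atp6v1g1, was at 183.

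**Figure D3:**
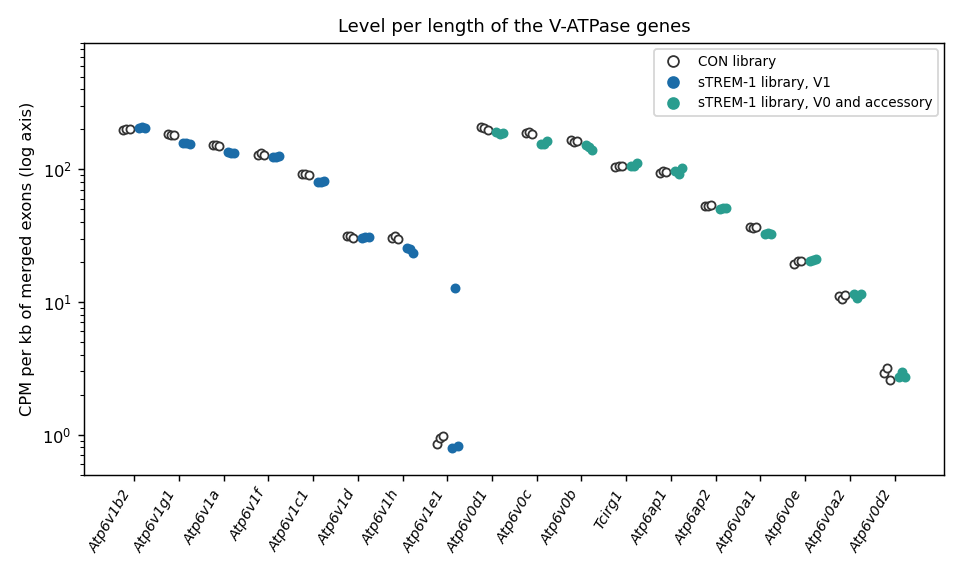
Level per kb of merged exons (CPM per kb, log axis) of the 18 tested V-ATPase genes in each library, open points for CON and filled points for sTREM-1. Atp6v0d1 has the highest mean in CON and Atp6v1b2 in sTREM-1, and Atp6v1e1 lies at the bottom except in 1 sTREM-1 library.

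In Ragulator and the Rag machinery, 4 of the 10 tested genes fell (14.1% of all genes) and none rose (16.5% of all genes). Rragd, a Rag GTPase whose own gene is a target of the MiT/TFE factors, was at 16.2, 14.6 and 16.7 CPM in CON and at 13.1, 12.1 and 10.6 CPM after sTREM-1. All sTREM-1 libraries were lower, at 66.8 to 82.6% of the CON mean, and the fall of 0.41 (SE 0.0875, adjusted p = 0.00050) was the largest of all the genes described, from one of the lowest levels. Its partner in the same role, Rragc, was at 238, 246 and 241 CPM in CON and at 230, 235 and 232 CPM after sTREM-1. The groups of Rragc did not overlap, but the difference of −0.06 (95% interval −0.11 to −0.0055) was not called (adjusted p = 0.089). Per length, Rragc was at 72.4 CPM per kb in CON, Rraga at 43.6 and Rragd at 3.06. Rraga, which pairs with Rragc or Rragd, differed by 0.07 (95% interval −0.0053 to 0.15, adjusted p = 0.16).

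Ragulator itself is a scaffold of 5 proteins. Lamtor3 was at 117, 117 and 113 CPM in CON and at 94.3, 95.6 and 91.0 CPM after sTREM-1. The groups were far apart, and it fell by 0.30 (SE 0.0327, adjusted p = 1.2e-08). Lamtor2, with which the Lamtor3 protein forms a dimer, was at 63.5, 67.0 and 61.1 CPM in CON and at 68.3, 69.2 and 67.3 CPM after sTREM-1. Its sTREM-1 values were all higher than CON, at a difference of 0.10 (95% interval 0.01 to 0.18) that missed the threshold (adjusted p = 0.068). It passed in 2 of 11 alternatives, with the replicate block (adjusted p = 0.046) and without CON replicate 2 (0.022), in a range of 0.022 to 0.32. Partners of 1 dimer thus differed in their call, Lamtor3 lower and Lamtor2 not called, and were not tested against each other. Lamtor5 was at 39.9, 38.6 and 38.1 CPM in CON and at 35.7, 34.9 and 34.2 CPM after sTREM-1. It fell by 0.15 (SE 0.0477, adjusted p = 0.014) without overlap, a call that was lost without CON replicate 1 (adjusted p = 0.072) and without sTREM-1 replicate 3 (0.056), in a range of 0.011 to 0.072 over the alternatives. Lamtor1, the lipid anchor, differed by −0.03 (adjusted p = 0.50). Lamtor4, the partner of Lamtor5, was listed at 0 in all 6 libraries. The marker Aif1 was listed at 0 as well, and whether these zeros reflect the RNA level or how the table was counted was not tested.

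The folliculin complex acts on the Rags and, through them, on the MiT/TFE factors. Fnip1, a folliculin partner, was at 283, 293 and 294 CPM in CON and at 272, 268 and 258 CPM after sTREM-1. It fell by 0.13 (SE 0.0261, adjusted p = 0.00038) with no overlap. Flcn, folliculin itself, was at 118 ± 2.61 CPM in CON and 118 ± 4.87 CPM in sTREM-1 (SD, n = 3), with a 95% interval of −0.07 to 0.07. Slc38a9, the arginine sensor of the lysosomal membrane, differed by −0.01 (adjusted p = 0.88).

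Among the 10 genes of mTORC1, TSC, the MiT/TFE factors and Mcoln1, 3 rose and 2 fell, shares of 30% and 20% that lie near the 23.4% and 18.7% of genes with at least 10 CPM (16.5% and 14.1% of all genes). Without CON replicate 2 just 1 was called higher. Mitf was at 83.2, 85.8 and 81.3 CPM in CON and at 91.5, 97.4 and 91.5 CPM after sTREM-1. All sTREM-1 values were higher, and it rose by 0.16 (SE 0.0359, adjusted p = 0.00065). Tfe3 was at 64.5, 62.7 and 68.1 CPM in CON and at 71.0, 68.6 and 69.9 CPM after sTREM-1. Its groups came within 1% of each other, and its rise of 0.10 (SE 0.0393, adjusted p = 0.0495) held in only 3 of 11 alternatives at the same threshold, where the adjusted p ran from 0.020 to 0.24. Tfeb was at 10.4 ± 0.698 CPM in CON and 10.8 ± 0.319 CPM in sTREM-1 (SD, n = 3), overlapped and was not called (95% interval −0.13 to 0.24). Per length, Mitf led the 3 factors in CON at 13.5 CPM per kb, followed by Tfe3 at 7.03 and Tfeb at 1.83.

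Of the kinase complex, Rptor, the scaffold that brings substrates to mTORC1, was at 69.2, 65.2 and 71.4 CPM in CON and at 77.4, 75.9 and 73.4 CPM after sTREM-1. The groups did not overlap, and it rose by 0.14 (SE 0.0393, adjusted p = 0.0065). The call on Rptor was lost without CON replicate 2 (adjusted p = 0.068), in a range of 0.0018 to 0.068 over the alternatives. Mtor, the kinase, differed by 0.0038 (95% interval −0.10 to 0.11), with sTREM-1 libraries on either side of CON. Mlst8, the third core subunit, was at 18.9, 19.3 and 20.5 CPM in CON and at 22.6, 20.7 and 21.8 CPM after sTREM-1. Its sTREM-1 values were all higher, but the difference of 0.15 was not called (adjusted p = 0.091).

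Upstream of the kinase, Tsc1, which stabilises the TSC complex, was at 128, 128 and 131 CPM in CON and at 117, 123 and 122 CPM after sTREM-1. It fell by 0.09 (SE 0.0309, adjusted p = 0.020) without overlap. The call on Tsc1 was lost without CON replicate 3 (adjusted p = 0.077) and without sTREM-1 replicate 1 (0.14), in a range of 0.011 to 0.14 over the alternatives. Tsc2, the GTPase-activating subunit, and Rheb, the GTPase it acts on, differed by −0.03 and 0.03 and were not called. Mcoln1, the calcium channel of lysosomes and a target of TFEB, was at 59.1, 57.5 and 62.1 CPM in CON and at 51.3, 53.6 and 54.8 CPM after sTREM-1. Every sTREM-1 value was lower, and it fell by 0.16 (SE 0.0424, adjusted p = 0.0034).

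**Figure D4:**
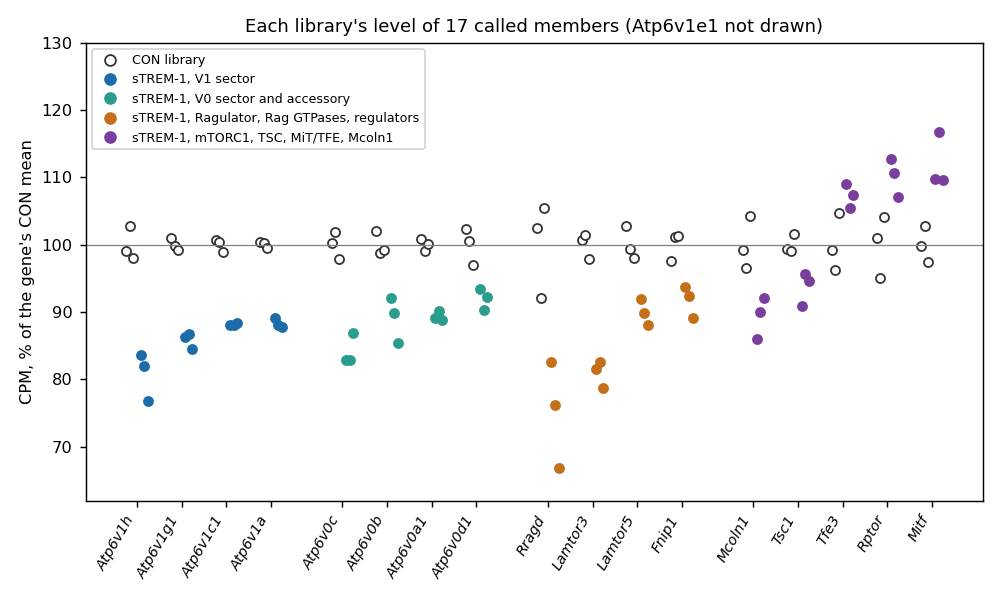
CPM of 17 called genes in each library as a percent of the gene's CON mean, with open points for CON and coloured points for sTREM-1 by group of genes. sTREM-1 points lie between 66.8 and 95.7% of the CON mean for the genes that fell and between 105 and 117% for Tfe3, Rptor and Mitf.

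The plot of called genes by library shows Rragd with the widest spread between sTREM-1 libraries. It leaves out Atp6v1e1, whose value rests on 1 library.

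Genes that work with the platform were counted in lists of their own, to be read against the 16.5% of all genes called higher and the 14.1% called lower. Of 15 tested genes for other V-ATPase subunits, assembly factors and regulators, 3 rose (20%) and 2 fell (13.3%), shares near those of all genes, with a median of 0.02. The 3 that rose, Dmxl1, Dmxl2 and Rogdi, encode relatives of the RAVE complex, which joins V1 to V0, and rose by 0.11, 0.17 and 0.39 (adjusted p = 0.0037, 0.00024 and 0.0097). Wdr7, a partner of the Dmxl proteins, differed by 0.04 (adjusted p = 0.41). The 2 that fell were Vma21, an assembly factor of V0, at −0.12, and Clcn7, the chloride transporter that balances the charge of pumped protons, at −0.14.

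Of 20 tested genes that report amino acids to the Rags, 3 rose (15.0%) and 4 fell (20%), beside 16.5% and 14.1% of all genes. Among them Depdc5, of the GATOR1 complex that switches Rags off, rose by 0.26 (adjusted p = 4.1e-05). Nprl2 and Nprl3, also of GATOR1, were not called (0.03 and −0.06, adjusted p = 0.81 and 0.34). Slc7a5, a leucine importer, fell by 0.29 (adjusted p = 3.7e-09). Slc3a2, of the same list, was not called (0.05, adjusted p = 0.11), with all its sTREM-1 values above CON. Fnip2, the other folliculin partner, fell by 0.18 (adjusted p = 3.9e-08), as Fnip1 did. Rragb, the close relative of Rraga, was listed at 0 in all 6 libraries. Of 13 tested genes for other mTOR and TSC parts, 3 rose (23.1%) and none fell, beside 16.5% and 14.1% of all genes. The inhibitors Ddit4 and Deptor rose by 0.42 (adjusted p = 1.0e-09) and 0.39 (adjusted p = 0.00036), and Mapkap1, of mTORC2, by 0.17, while a further inhibitor, Akt1s1, was not called (−0.08, adjusted p = 0.23).

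Of 11 genes for mTORC1 substrates, 4 were called higher (36.4%) and none lower, beside 16.5% and 14.1% of all genes, including Lpin1 at 0.39, Maf1 at 0.29 and Eif4b at 0.20. The fourth, Rps6kb2, was called (1.43, adjusted p = 0.036) on 32, 27 and 37 counts in CON and 19, 29 and 210 counts after sTREM-1. Without sTREM-1 replicate 3 it stood at −0.52 (adjusted p = 0.43). Of 14 tested relatives and regulators of the MiT/TFE factors, 1 rose (7.14%) and 6 fell (42.9%), beside 16.5% and 14.1% of all genes, with a median of −0.07. The calcineurin genes Ppp3ca, Ppp3cb and Ppp3r1, whose product removes phosphate from TFEB, fell by 0.17, 0.12 and 0.13. A further calcineurin gene, Ppp3cc, was not called (−0.17, adjusted p = 0.051).

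Of 25 target genes of TFEB, 11 fell (44.0%) and 3 rose (12%), beside 14.1% and 16.5% of all genes and 18.7% and 23.4% of those with at least 10 CPM, with a median of −0.05. Sqstm1, the autophagy receptor, fell by 0.29 from 3542 ± 98.7 to 2905 ± 97.7 CPM (SD, n = 3; adjusted p = 5.6e-12). Map1lc3b, the autophagosome protein LC3, fell by 0.23, and the protease gene Ctsd by 0.15. Glb1, a lysosomal galactosidase, rose by 0.21, and Gpnmb, a glycoprotein of phagocytes, by 0.11. Apart from Rps6kb2, the named genes of these lists were picked after their values were seen, and no test was made of a list as a whole.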

How the data were processed

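RNA-seq was made from 6 libraries of BV2 cells, 3 CON and 3 sTREM-1, grouped by their labels (the labels give n = 3 per group, the methods n = 4). Per the labels and methods, the authors deposited raw read counts per gene symbol for each library, and FastQC, RSEM and HISAT2 2.0.4 are named. The submitters' processing notes list only human builds, hg19 and GRCh38, for these mouse cells, with no role. The build, annotation and strand setting behind the counts are not given in the sources used here. Reads of genes that share exon sequence or lie on opposite strands could therefore be counted together.

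Counts were fitted with edgeR 4.0.16 in R 4.3.3 (TMM scaling, filterByExpr with a minimum count of 10, quasi-likelihood test, Benjamini-Hochberg adjustment over all tested genes, threshold 0.05). SE is the absolute log2 fold change over the root of F, and intervals are 95%. CPM were divided by merged exon length in GENCODE M21, which covers all isoforms and can exceed the length of the transcript present. The count test was tested on simulated data. Near-identical copies were transcripts with at least 90% identity over 200 bases. A count jump needed at least 20 counts and a factor of 2 (or 3) from the group median in at least 1 library. Intervals come from the fit and cover the spread between libraries. By rule, full statistics went to up to 5 called genes per group of genes with the largest change, to genes with a count jump and to Mtor, Tfeb, Tfe3 and Mitf, and genes of other lists were named where called at an absolute log2 fold change of at least 0.5 (Rps6kb2, Csf1r, Cx3cr1); further names were picked after their values were seen. Alternatives were RLE scaling, no filter, a minimum of 10 counts in every library, DESeq2 1.42.0, the replicate number as a block, a 1.2-fold threshold, and each library left out in turn. The genes and lists were chosen with earlier results of these data known. The TCACGTG search was added after the data were seen.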

Additional observations from a re-analysis of the deposited data

How the results depend on the processing

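The count of called genes among the 38 was 18, with 17 under RLE scaling, 18 with no low-count filter, 18 where each library had to hold 10 counts and 16 to 17 with 1 library left out. The block by replicate number gave 19 (the 18 and Lamtor2, so that 1 Ragulator-Rag gene was higher) and 4613 calls over all genes against 4312. The numbers did not pair the samples, with correlations of deviations of −0.02, −0.05 and −0.01.

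A threshold of 1.2-fold beside the adjusted p left 1517 of all genes (836 higher, 681 lower). It left 4 of the 38, with Atp6v1e1 higher (1) and Atp6v1h, Lamtor3 and Rragd lower (3), so that 1 V1, 0 V0 and 2 Ragulator-Rag genes were lower and, of the mTORC1-TFEB genes, 0 were higher and 0 lower. DESeq2 gave 2 higher genes among the 38 and 0 in V1, where it set no adjusted p for Atp6v1e1.

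With 1 library left out, all genes called ranged from 3608 to 3863. Genes called higher ranged from 2 to 4 of the 38, 0 to 1 of V1, 0 to 1 of Ragulator-Rag and 1 to 3 of mTORC1-TFEB, where 1 to 2 were lower. The median log2 fold change ranged from −0.0507 to −0.0334 over the 38, −0.180 to −0.115 in V1, −0.0957 to −0.0364 in V0 and −0.0630 to −0.0440 in Ragulator-Rag, with 0.0273 to 0.0680 in mTORC1-TFEB, and that of V1 without Atp6v1e1 was −0.18. Atp6v1e1 ranged from −0.20 without sTREM-1 replicate 2 (adjusted p = 0.47), a reversal, to 2.89 without sTREM-1 replicate 1, and was 1.54 with the block. At the unchanged threshold, of the other calls, Tfe3 was lost in 8 alternatives, Lamtor5 and Tsc1 in 2 each and Rptor in 1, and Lamtor2 was gained without CON replicate 2 (adjusted p = 0.022) and Atp6ap2 (adjusted p = 0.048) where each library had to hold 10 counts. The cause was not tested.

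The low genes Atp6v0d2 and Tfeb have wide 95% intervals at this depth, and the widest is that of Atp6v1e1. Changes of mRNA say nothing of assembled pumps, acidity or kinase activity, which were not measured here.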

Other observations

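Several of the 40 genes share exon sequence with a gene on the opposite strand in the GENCODE annotation, and the strand setting of the counts is not given. The overlap was 32 bases for Atp6v1e1 with Slc25a18, 127 for Atp6v1h with Rgs20, 243 for Atp6v0b with Gm12841, 600 for Lamtor1 with Lrrc51, 693 for Tsc2 with Pkd1 and 997 for Mlst8 with Bricd5. No same-strand overlap was found. Besides Atp6v0c-ps2, which held 160, 162 and 136 counts in CON and 116, 127 and 110 after sTREM-1, no near-identical copy found in the table held more than 28 counts in any library. Gm15129, a processed pseudogene 91.3% identical to Lamtor4 over 276 bases, was not analysed here.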
